A study of Mus musculus with 8 samples.

Results

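The clustered replication-type histone genes are the protein-coding mouse genes with symbols beginning Hist1h, Hist2h, Hist3h or Hist4h and a class of H1, H2A, H2B, H3 or H4. By that symbol rule 65 of the 47311 genes with deposited values were members, out of 67 in the GENCODE vM21 annotation. They comprised 6 genes of H1, 18 of H2A, 16 of H2B, 12 of H3 and 13 of H4. The Hist1 cluster on chromosome 13 held 52 of them, the Hist2 cluster 10, the Hist3 cluster 2 and the Hist4 locus 1. Their RNA was measured in LSK cells, which are lineage-negative, Sca1-positive and Kit-positive bone marrow cells that include the blood stem cells and early progenitors.

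Each of the 8 libraries came from 1 mouse, with 2 mice in each of 4 groups. The groups were old Asxl2 knockout (KO) mice, young Asxl2 KO mice, old wild-type (WT) mice and young WT mice, where old meant over 1 year and young 8 to 12 weeks. Littermates were paired across genotype: the labels name 4 litters, with a KO and a WT animal in each, all of 1 age per litter. They also name 2 batches, and every group had 1 mouse in each batch. Litters 1 and 2 were old and litters 3 and 4 young, and litters 1 and 3 were in batch 1. The strain and the knockout allele are not given in the sources used here.

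Replication-type histones package newly copied DNA. The H2A, H2B, H3 and H4 proteins form the core of the nucleosome and H1 binds the linker DNA beside it. Their genes are copied into RNA mainly in S phase, and the RNA usually has no polyA tail: it ends just after a short stem-loop, which the protein Slbp binds. The libraries were labelled polyA RNA and made with a SMART-Seq kit, which primes on adenine runs. The values below are therefore those of histone RNA that such priming captured and may not rank the genes as their total RNA would.

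The knockout was visible in every KO library. Asxl2, a chromatin regulator of the additional sex combs family, was at 5.34 and 4.99 TPM in old KO and 4.63 and 5.63 TPM in young KO libraries. It was at 30.0 and 23.0 TPM in old WT and 30.8 and 23.7 TPM in young WT libraries. Libraries held 45737972 to 80388500 estimated counts, of which the members took 0.0329% to 0.120%. The defining gate genes were detected in all 8: Kit at 63.4 to 161 TPM in KO and 133 to 547 TPM in WT libraries, and Ly6a (Sca1) at 266 to 661 TPM in KO and 150 to 276 TPM in WT libraries. Summed levels of other lineages' markers also differed, with 7 erythroid genes at 93.5 to 487 TPM in KO and 254 to 757 TPM in WT libraries, and 5 mast cell genes at 39.7 to 172 TPM in KO and 65.04 to 311 TPM in WT libraries. Other lists varied widely between libraries: 7 neutrophil genes summed to 46.0 to 1458 TPM in KO and 6.60 to 998 TPM in WT libraries. The sum of 7 macrophage, monocyte and dendritic genes was 217 to 1031 TPM in KO and 268 to 1245 TPM in WT libraries. Both sums were higher in KO in 2 of the 4 litters, and no gene of either list passed by edgeR. By edgeR 5 of the 7 erythroid and 4 of the 5 mast cell genes fell in KO, and of 10 genes that mark LSK cells 2 rose and 4 fell. With litter as a block, 1 erythroid, 4 mast cell and 2 LSK genes fell and none rose. Their part in the histone values was not tested.

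Histone RNA was unevenly spread over the classes and the genes. Summed over the 65 members it came to 6074 and 3594 TPM in old KO and 2099 and 5772 TPM in young KO libraries, against 3209 and 1672 TPM in old WT and 2129 and 3439 TPM in young WT libraries. TPM scales counts for transcript length and depth. The H2A class made up 80.6% of this sum on average (77.9% to 84.0% over the libraries), H1 8.14%, H4 6.17%, H2B 3.61% and H3 1.47%. Nucleosome cores hold H2A, H2B, H3 and H4 proteins in equal numbers. Of the 65 genes, 5 averaged at least 100 TPM, 21 at least 10 TPM and 13 less than 1 TPM. The same 3 H2A genes, Hist1h2ap, Hist1h2ae and Hist1h2ah, held 70.4% to 78.0% of member TPM in every library.

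**Figure D1:**
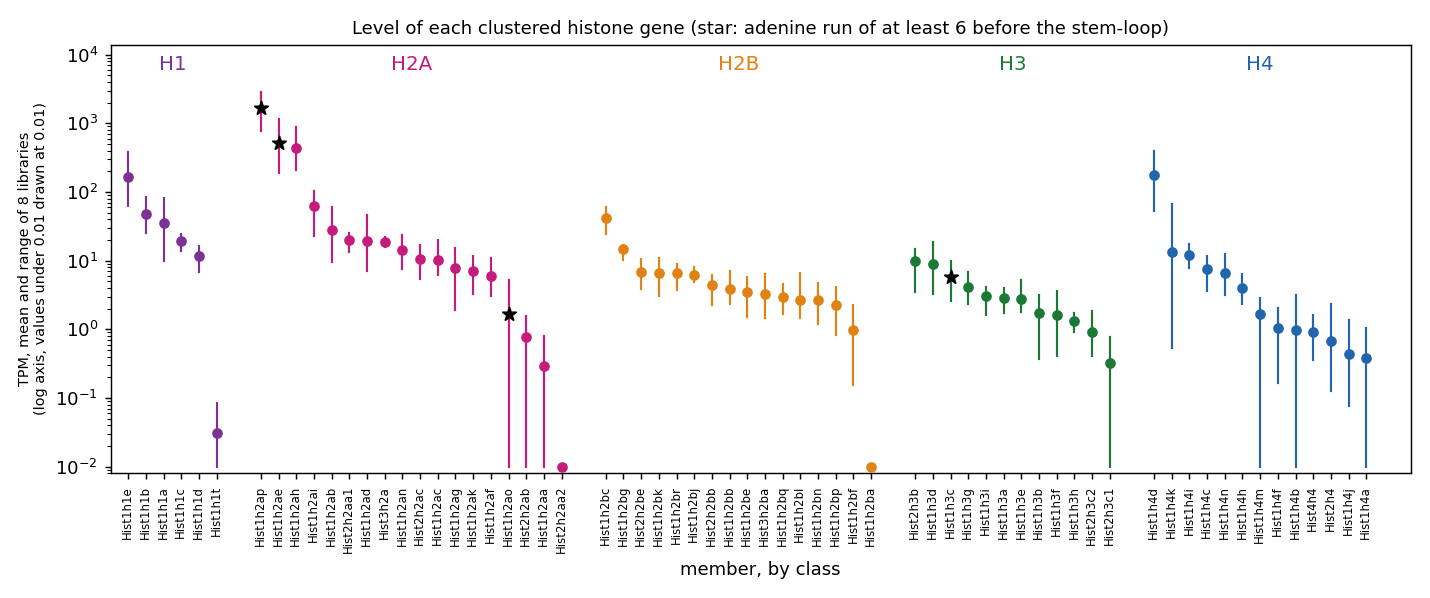
TPM of each of the 65 members on a log axis, by class, with the mean (symbol) and the range (line) over the 8 libraries; stars mark the 4 genes with an adenine run of at least 6 just before the stem-loop. H2A, H1 and H4 each have a leading gene above 100 TPM, whereas the highest H2B or H3 gene, Hist1h2bc, averages 42.05 TPM.

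The transcript ends of abundant and less abundant genes are shown because the libraries depend on adenine runs. A stem-loop (a stem of 6 base pairs and a loop of 4 bases) was found in 43 of the 65 members when the most abundant transcript of each was read, and in 44 when any of its transcripts counted. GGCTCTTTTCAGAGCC was the form in 23 of the 43. The form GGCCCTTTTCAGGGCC was found in 7 members, which were H4 genes. Within the 20 bases before the stem-loop, 4 of the 43 had an adenine run of 6 or more. These were Hist1h2ap, Hist1h2ao, Hist1h2ae and Hist1h3c, with means of 1671, 1.70, 522 and 5.85 TPM, against a median of 3.96 TPM and a highest mean of 174 TPM among the other 39. Hist1h2ah, at 438 TPM, had no stem-loop within its annotated transcript of 405 bases, so its end could not be examined. Among the sites shown, only that of Hist1h2ap lies in a transcript with the same length in GENCODE vM21 and in the deposited values. The other sites may lie outside the transcript that was quantified. The sites below are in the 3′ UTR, from the GENCODE vM21 transcripts (mm10), with the stem-loop in capitals and the preceding 14 bases in lower case.
Hist1h2ap, chr13:21833029-21833058, minus strand: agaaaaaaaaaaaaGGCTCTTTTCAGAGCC
Hist1h2ae, chr13:23570668-23570697, minus strand: gtaaaaaaaacaaaGGCTCTTTTCAGAGCC
Hist1h3c, chr13:23745047-23745076, minus strand: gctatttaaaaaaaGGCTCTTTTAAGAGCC
Hist1h1e, chr13:23621782-23621811, minus strand: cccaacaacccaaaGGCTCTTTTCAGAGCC
Hist1h4d, chr13:23581936-23581965, plus strand: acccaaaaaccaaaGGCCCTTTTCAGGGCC
Hist1h2bg, chr13:23571829-23571858, plus strand: actcctaacccaaaGGCTCTTTTCAGAGCC
The run was 12 adenines in Hist1h2ap and 8 in Hist1h2ae, the members with the highest and second highest level. It was 7 in Hist1h3c, a gene at 5.85 TPM, and 5 in Hist1h4d, the highest H4 gene.

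Near-identical copies limit how far single genes can be told apart. Shared words were counted in GENCODE vM21 transcripts, which have the same length as in the deposited tables for 47 of the 65 members. In the most abundant transcript of each, 39 of the 65 members had under 50% of their 31-base words to themselves and 4 had none. Of these 4, Hist1h2bq and Hist1h2br had words of their own in a less abundant transcript. Hist1h2ap shared 422 of its 452 words with Hist1h2ao, which has the same 12-adenine site, which leaves 30 words by which the pair's 1671 and 1.70 TPM could be told apart. Hist1h2ah had 8.80% of its words to itself and shared 330 with Hist1h2ad. Hist2h2aa2, whose 498 words all occur in Hist2h2aa1, was listed at or next to 0 in every library, and Hist1h2ba, a gene known for its use in testis, was listed at 0. Hist1h1b, Hist1h1a and Hist2h2be had 96.1%, 99.7% and 97.7% of their words to themselves.

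Divergent H2A and H2B neighbours differed in level although they start within 305 bases of each other. There were 12 such pairs, with 175 to 305 bases between the 2 annotated starts. The H2A gene was the higher one in 10 of the 12, and the median ratio of H2A to H2B was 6.24 over the pairs with H2B above 0. Hist1h2ap stood at 1671 TPM and its neighbour Hist1h2br at 6.63 TPM. Hist1h2ah stood at 438 TPM and Hist1h2bk at 6.67 TPM, and Hist1h2ae at 522 TPM and Hist1h2bg at 14.6 TPM. Hist1h2ac and Hist1h2bc went the other way, at 10.3 and 42.0 TPM, as did Hist1h2ao and Hist1h2bq at 1.70 and 2.99 TPM.

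Promoter motifs differed in frequency between the classes. RefSeq promoters (GRCm38.p6, 250 bases before to 50 after the start) matched 60 of the 65 members and gave 61 promoters. CCAAT, searched on both strands, was present in every H1, H2A, H2B and H3 promoter and in 25% of the 12 H4 promoters, against 37.4% of all 32851 promoters. TATAAA, searched likewise, was in 57.4% of member promoters and 13.6% of all. ATTTGCAT, the octamer known from H2B genes, was in 38.9% of H2A and 40% of H2B promoters, in none of the H1, H3 or H4 promoters and in 1.74% of all; divergent pairs share part of these windows. The 100 bases before the start are shown for Hist1h1b, Hist1h4d and Hist1h2bk, with these motifs in capitals (ATTGG is CCAAT on the other strand).
Hist1h1b, chr13:21780626-21780725, minus strand: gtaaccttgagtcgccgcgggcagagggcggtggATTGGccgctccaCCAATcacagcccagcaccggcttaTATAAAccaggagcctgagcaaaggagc
Hist1h4d, chr13:23581468-23581567, plus strand: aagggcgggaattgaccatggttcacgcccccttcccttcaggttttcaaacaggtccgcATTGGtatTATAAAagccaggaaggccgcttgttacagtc
Hist1h2bk, chr13:22035721-22035820, plus strand: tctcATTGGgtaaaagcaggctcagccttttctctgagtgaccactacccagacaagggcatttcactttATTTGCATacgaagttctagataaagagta
A motif match describes the letters and does not show that a factor binds there.

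The main question was whether loss of Asxl2 changed histone RNA, over both ages. Of the 59 members that passed the filter on low counts, 7 rose in KO against WT and none fell (edgeR's quasi-likelihood test, adjusted p under 0.05 over all tested genes), where 3.19% of all 25543 tested genes rose, 6.78% fell and 9.98% changed either way. They were Hist1h1b and Hist1h1a of H1, Hist1h2ap, Hist1h2ae, Hist1h2ah and Hist1h2ai of H2A, and Hist1h2bc of H2B. Fold changes were above 0 in 51 of the 59 members, with a median log2 change of 0.62, against 0.10 over all tested genes. DESeq2 called 13 members higher and 1, Hist2h4, lower, and of all genes it called 7.47% higher and 13.6% lower.

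Fold changes moved with RNA length. With protein-coding genes above 5 TPM ordered by length into 10 bins, the median log2 change in KO against WT was 0.42 in the shortest bin and -0.45 in the longest, and 51 of the 59 tested members were as short as the shortest bin. With a correction for effective length in each library, the median of the members was 0.20, against 0.07 over all tested genes, and only Hist1h1b still passed. That is 1.69% of the members, beside 1.73% of all tested genes that rose with the correction. In the same correction 39 of the 59 were above 0. Adjusted p-values of the other 6 with the correction were 0.0528 for Hist1h2bc and 0.198 to 0.36 for the rest.

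**Figure D2:**
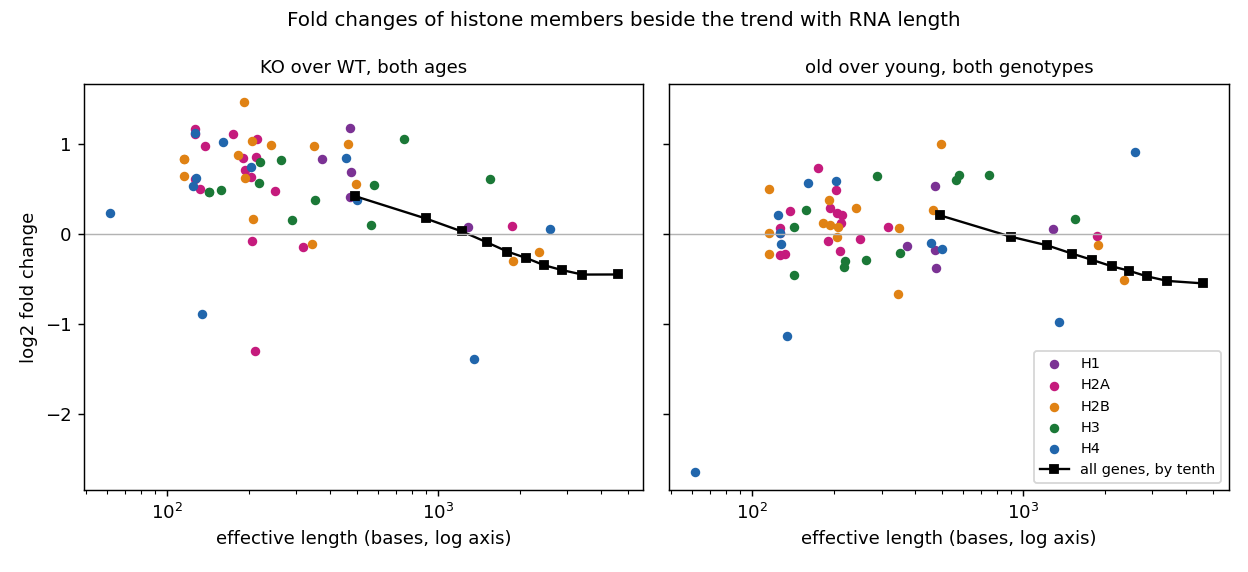
Log2 fold change of the 59 tested members against effective length in bases (log axis), coloured by class, for KO over WT (left) and old over young (right); black squares are medians of all protein-coding genes above 5 TPM in 10 bins of length. The trend falls with length in both panels, from a median of 0.42 in the shortest bin for KO over WT and 0.21 for old over young. Members above 0 number 51 of 59 for KO over WT and 34 of 59 for old over young. With the length correction, which is not plotted, they number 39 and 13.

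Among the H1 genes Hist1h1b, a linker histone gene, had the largest change of the 7 members that passed. It had 69.9 and 86.0 TPM in old KO and 67.7 and 37.9 TPM in young KO libraries, against 45.2 and 31.03 TPM in old WT and 25.8 and 25.5 TPM in young WT libraries. The KO mouse was higher in all 4 litters, by 1.55, 2.77, 1.49 and 2.63 times in litters 1, 2, 3 and 4, although the lowest KO library lay below the highest WT library. The log2 change was 1.18 (SE 0.19, adjusted p = 0.0117), and 0.82 with the length correction (adjusted p = 0.0403). It no longer passed in batch 1 alone or without the second old WT library.

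Hist1h1a, another linker histone gene, differed by batch as well as by genotype. It had 51.7 and 21.9 TPM in old KO and 18.7 and 81.8 TPM in young KO libraries, against 39.3 and 13.1 TPM in old WT and 9.98 and 48.6 TPM in young WT libraries. The higher library of each group was the one from batch 1, and within every litter the KO mouse was the higher. The change was 0.83 (SE 0.23, adjusted p = 0.0421), and 0.46 with the length correction (adjusted p = 0.198). Hist1h1e, the most abundant H1 gene, had 231 and 107 TPM in old KO and 77.2 and 384 TPM in young KO libraries, against 135 and 62.7 TPM in old WT and 65.4 and 281 TPM in young WT libraries. The KO mouse was higher in all 4 litters, but the change of 0.69 did not pass (adjusted p = 0.0851). It passed with litter as a block (adjusted p = 0.0483), with DESeq2 (adjusted p = 0.0142), with no filter (adjusted p = 0.000658), and without the first young KO library (adjusted p = 0.0302) or the second young WT library (adjusted p = 0.0234). Its annotated span overlaps that of Hist1h2be, with which it shares 466 words.

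The abundant H2A genes rose in 3 litters and not in litter 4. Hist1h2ap had 2876 and 1884 TPM in old KO and 1026 and 2577 TPM in young KO libraries, against 1653 and 783 TPM in old WT and 1087 and 1482 TPM in young WT libraries. The KO mouse had 1.74, 2.41 and 1.74 times its littermate's level in litters 1, 2 and 3, and 0.943 times in litter 4. The log2 change was 0.86 (SE 0.20, adjusted p = 0.0264), and 0.33 with the length correction (adjusted p = 0.291).

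Hist1h2ae had 976 and 346 TPM in old KO and 202 and 1161 TPM in young KO libraries, against 472 and 187 TPM in old WT and 226 and 605 TPM in young WT libraries. The batch 1 libraries were all above the batch 2 libraries, and litter 4 was the only litter with KO below WT. The change was 0.85 (SE 0.24, adjusted p = 0.0472) and was lost with litter as a block (adjusted p = 0.0692). Hist1h2ah had 884 and 533 TPM in old KO and 259 and 606 TPM in young KO libraries, against 369 and 206 TPM in old WT and 256 and 392.1 TPM in young WT libraries. The litter 4 mice were level, at 1.01 times, while the KO mouse of the other litters had 1.55 to 2.59 times its littermate's level. The change was 0.98 (SE 0.24, adjusted p = 0.033) and was lost with litter as a block (adjusted p = 0.0591).

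Hist1h2ai, a less abundant H2A gene, was higher in KO in litter 4 too. It had 105 and 74.0 TPM in old KO and 54.4 and 89.7 TPM in young KO libraries, against 64.6 and 22.6 TPM in old WT and 30.6 and 58.2 TPM in young WT libraries. The change was 1.11 (SE 0.23, adjusted p = 0.0211). The remaining 12 tested H2A genes did not pass, with averages of 0.770 to 27.9 TPM.

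**Figure D3:**
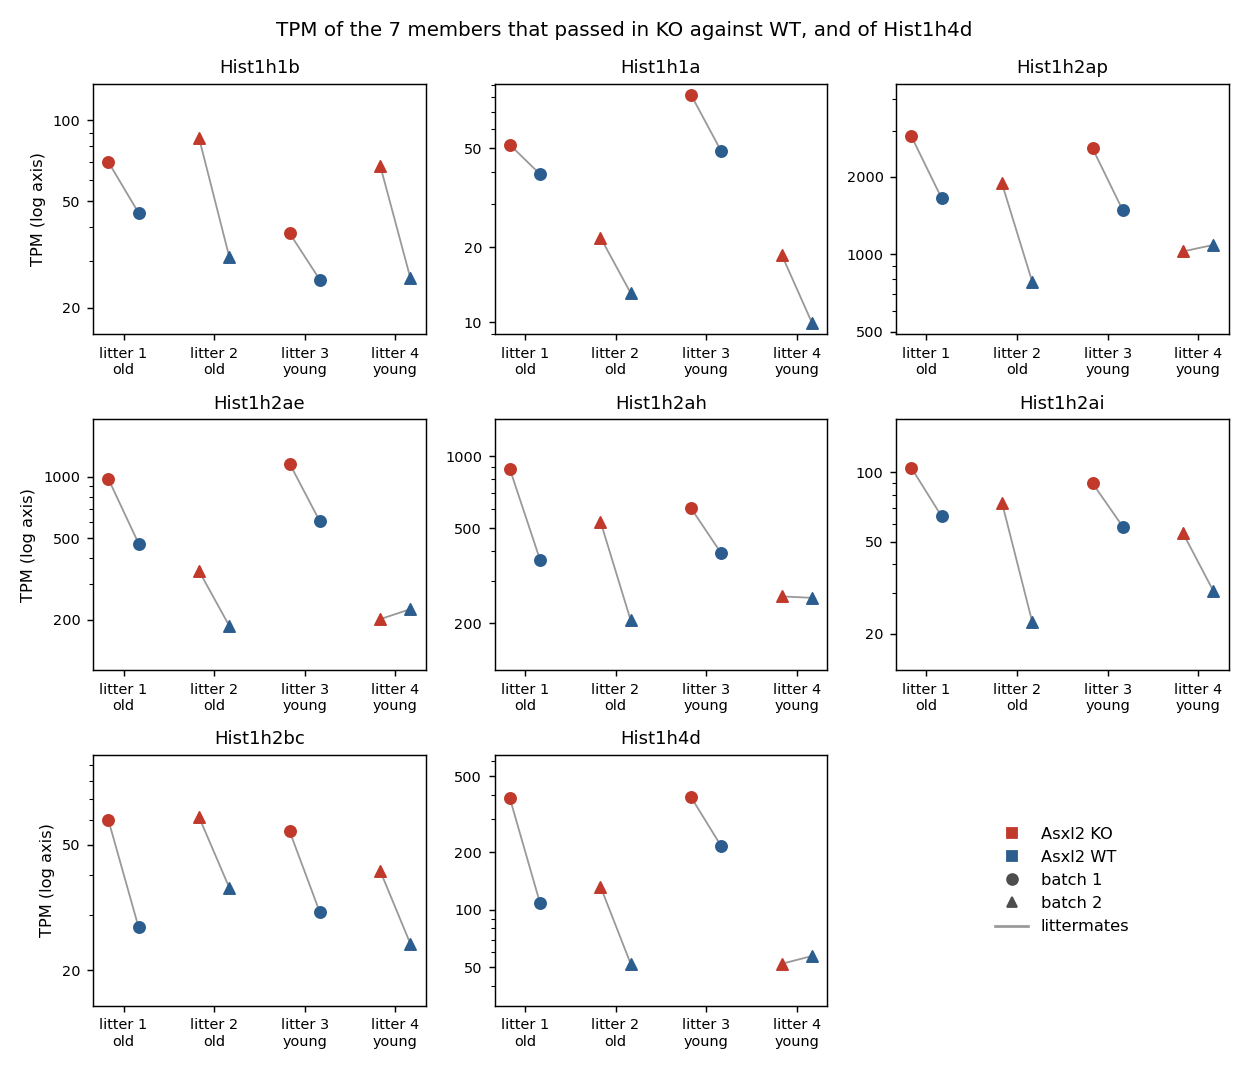
TPM on a log axis for the 7 members that passed in KO against WT and for Hist1h4d, by litter, with KO left and WT right of each pair of littermates and the marker giving the batch. Hist1h1b, Hist1h1a, Hist1h2ai and Hist1h2bc are higher in KO in all 4 litters, and Hist1h2bc has no overlap between the genotypes; Hist1h2ap, Hist1h2ae and Hist1h4d are not higher in KO in litter 4, where Hist1h2ah is level.

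Hist1h2bc was the one H2B gene that passed and the one called member whose KO and WT libraries did not overlap. It had 59.9 and 61.3 TPM in old KO and 41.3 and 55.2 TPM in young KO libraries, against 27.3 and 36.6 TPM in old WT and 24.2 and 30.5 TPM in young WT libraries. The change was 1.00 (SE 0.22, adjusted p = 0.0249), and 0.68 with the length correction (adjusted p = 0.0528). In all, 5 of the 59 members had every KO library above every WT library, against 1.8% of all tested genes, and none had every KO library below, against 8.08%: Hist1h2bc, Hist1h2bf, Hist1h2bj, Hist1h2bk and Hist1h3a. The last 4 averaged 0.962 to 6.67 TPM and did not pass. Such TPM comparisons are not corrected for the trend with RNA length, and the shares of all genes are not matched for length.

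The next 2 H2B genes by level did not pass. Hist1h2bg had 14.8 and 14.01 TPM in old KO and 14.2 and 15.1 TPM in young KO libraries, against 14.3 and 17.1 TPM in old WT and 16.98 and 10.2 TPM in young WT libraries. The genotypes overlapped, and the change was 0.17 (adjusted p = 0.745). Hist2h2be, whose transcript has a polyA signal in its last 50 bases, had 3.82 and 5.48 TPM in old KO and 7.28 and 7.29 TPM in young KO libraries, against 6.12 and 7.42 TPM in old WT and 10.7 and 6.02 TPM in young WT libraries. These ranges overlapped too, with a change of -0.20 (adjusted p = 0.536).

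No H3 gene passed, and all 12 had fold changes above 0 (0.10 to 1.05). Hist2h3b, the highest, had 15.03 and 9.24 TPM in old KO and 8.40 and 10.9 TPM in young KO libraries, against 8.66 and 3.44 TPM in old WT and 14.8 and 7.69 TPM in young WT libraries, and the genotypes overlapped. Hist1h3d had 5.57 and 14.6 TPM in old KO and 9.96 and 4.63 TPM in young KO libraries, against 6.03 and 19.001 TPM in old WT and 9.68 and 3.23 TPM in young WT libraries. Here batch 2 was above batch 1 in every group (adjusted p for KO against WT = 0.775). Hist1h3c, shown above with its run of 7 adenines, had 10.03 and 5.92 TPM in old KO and 3.47 and 9.19 TPM in young KO libraries, against 3.79 and 2.60 TPM in old WT and 6.81 and 4.97 TPM in young WT libraries. It was lower in KO in litter 4 alone, at 0.509 times, and did not pass (adjusted p = 0.293).

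No H4 gene passed either. Hist1h4d had 384 and 133 TPM in old KO and 52.2 and 389 TPM in young KO libraries, against 108 and 52.2 TPM in old WT and 57.3 and 215 TPM in young WT libraries. Its change of 1.13 had an SE of 0.35 (adjusted p = 0.0628), and the KO mouse of litter 4 was at 0.911 times its littermate. Hist1h4i had 16.6 and 14.7 TPM in old KO and 11.6 and 17.7 TPM in young KO libraries, against 9.04 and 7.74 TPM in old WT and 8.43 and 12.2 TPM in young WT libraries. The KO mouse was higher in all 4 litters, with a change of 0.84 that did not pass (adjusted p = 0.0565). Hist1h4k had 33.9 TPM in the young KO mouse and 67.7 TPM in the young WT mouse of litter 4, and at most 2.59 TPM in the other 3 KO and 1.02 TPM in the other 3 WT libraries. Those 2 values rest on 88.8 and 164 estimated counts over an effective length of 61.3 bases.

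Class sums were compared between littermates. The KO mouse was above its WT littermate in all 4 litters for H1 (1.40 to 1.76 times) and for H2B (1.199 to 1.56 times). For H2A, H3 and H4 it was above in litters 1, 2 and 3 and below in litter 4, at 0.961, 0.796 and 0.752 times. H2B was the one class whose sums did not overlap, at 129 ± 15.4 TPM in KO and 90.3 ± 4.62 TPM in WT libraries (SD, n = 4 each). H2A came to 3575 ± 1576 TPM in KO and 2100 ± 702 TPM in WT libraries (SD, n = 4 each), where the groups overlap. In 20 of the 59 tested members the KO mouse was the higher in all 4 litters, against 12.3% of all tested genes. These sums and TPM comparisons are not corrected for the trend with RNA length. The share of all genes is not matched for length, and 51 of the 59 are as short as the shortest bin.

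**Figure D4:**
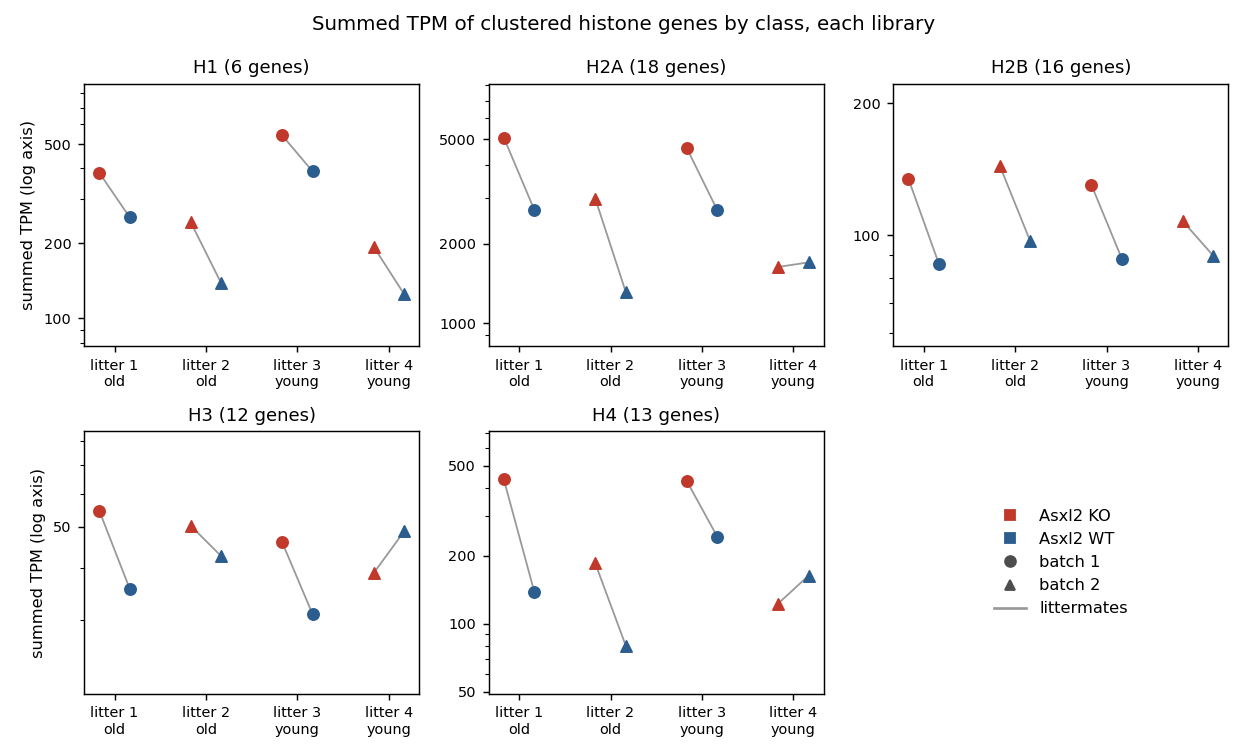
Summed TPM of each histone class on a log axis, by litter, with KO left and WT right of each pair and the marker giving the batch. The H2B sums separate the genotypes (108 to 144 TPM in KO, 86.1 to 96.8 TPM in WT libraries), while batch 1 averages 2.24, 1.98 and 2.26 times batch 2 for H1, H2A and H4.

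Within old mice, KO against WT, 2 members rose and none fell, where 0.204% of all tested genes rose, 0.446% fell and 0.65% changed either way. Hist1h2ah changed by 1.54 (SE 0.26, adjusted p = 0.0281) and Hist1h2ap by 1.26 (SE 0.23, adjusted p = 0.0419). Neither passed with litter as a block (adjusted p = 0.0945 and 0.105) or with the length correction (adjusted p = 0.0918 and 0.200). The median log2 change of the 59 members was 1.01 in old mice.

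Within young mice, KO against WT, no member passed by edgeR, where 0.0626% of all tested genes did (0.00783% higher, 0.0548% lower). At an unadjusted p under 0.05 there were 4 members, DESeq2 called 1, beside 1.52% of all genes, and limma called 0. Limma also called 0% of all genes there, at either pseudocount. The median log2 change was 0.41. Whether the KO effect differed between the ages was tested as an interaction, in which no member passed by edgeR, DESeq2 or limma. The shares of all genes were 0.00391% by edgeR, 0.0391% by DESeq2 and 0% by limma at either pseudocount. Unadjusted, 4 members had p under 0.05: Hist1h2ad, Hist1h2ah and Hist1h2ap with a higher log2 change in old mice, and Hist1h4m with a lower one. They are named here after their values were seen. Hist1h4m had 0.316 and 0 TPM in old KO libraries, against 2.64 and 2.35 TPM in old WT libraries. In young libraries it had 2.82 and 2.47 TPM in KO and 2.14 and 0.748 TPM in WT. The gene rests on 0 to 18.4 estimated counts a library and shares 341 of its 372 words with Hist1h4n. How many of all tested genes had an unadjusted p under 0.05 was not counted for any comparison. Such counts of members therefore have no background here and are not read as a result.

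No member passed with age in edgeR's test. In old against young mice over both genotypes, 0 of 59 members passed, where 13.9% of all tested genes did (4.34% higher, 9.61% lower). At an unadjusted p under 0.05 there were 4 members, limma called 0, and DESeq2 called 3 higher (Hist1h1b, Hist1h2bq and Hist4h4) and 2 lower (Hist1h4k and Hist2h2be). Of all genes DESeq2 called 10.8% higher and 15.6% lower, while limma called 0.351% on log2(TPM + 1) and 0.31% on log2(TPM + 0.1). Summed member TPM was 3637 ± 1825 in old and 3360 ± 1725 in young libraries (SD, n = 4 each). Hist1h1b was at 58.0 ± 24.6 TPM in old and 39.2 ± 19.9 TPM in young libraries (SD, n = 4 each), a log2 change of 0.53 that did not pass (adjusted p = 0.0709). Hist1h2bq, an H2B gene at 2.99 TPM on average, was the one tested member with every old library above every young one, a pattern found in 4.73% of all tested genes, and none had every old library below, against 1.41%. The gene's effective length, which depends on how reads are split among its transcripts, was 184.9 to 848.4 bases over the libraries. Its most abundant transcript shares all 351 words with Hist1h2br. The median log2 change of the members was 0.07, and it was -0.37 with the length correction, under which 46 of the 59 were below 0.

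Within 1 genotype no member passed with age either. In KO mice, old against young, edgeR and limma called 0, 5 members had an unadjusted p under 0.05 and DESeq2 called 2. Of all tested genes 0.0861% passed by edgeR (0.0626% higher, 0.0235% lower) and 13.9% by DESeq2. Limma called 0.031% of all genes on log2(TPM + 1) and 0.0103% on log2(TPM + 0.1). In WT mice, old against young, edgeR, limma and DESeq2 called 0, and 1 member had an unadjusted p under 0.05. There 0.0861% of all tested genes passed by edgeR (0.0666% higher, 0.0196% lower) and 1.54% by DESeq2. By limma 0.0155% passed on log2(TPM + 1) and 0.00516% on log2(TPM + 0.1). The median log2 change was 0.34 in KO mice and -0.12 in WT mice.

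Several members also differed between batches. Batch 1 against batch 2, a comparison added after the values were seen, had 3 members higher (Hist1h1a, Hist1h1e and Hist1h2ae) and none lower, where 0.168% of all tested genes were higher, 0.133% lower and 0.301% either. Every batch 1 library was above every batch 2 library in 8 members (1.71% of all tested genes) and below in 4 (4.41%). Hist1h1e averaged 258 ± 104 TPM in batch 1 and 78.2 ± 20.5 TPM in batch 2, and Hist1h2ae 803 ± 320 TPM in batch 1 and 240 ± 72.7 TPM in batch 2 (SD, n = 4 each). Hist1h1b averaged 44.6 ± 18.7 TPM in batch 1 and 52.6 ± 29.03 TPM in batch 2 (SD, n = 4 each), and edgeR's test did not call it (adjusted p = 0.901). At an unadjusted p under 0.05 there were 22 members, 12 of them H2A genes, and the share of all tested genes at that threshold was not counted. Within batches, the median log2 change of members in KO against WT was 0.81 in batch 1 (53 of 59 above 0) and 0.33 in batch 2 (40 of 59 above 0), and 4 members rose in batch 1, while 4 rose and 1, Hist2h4, fell in batch 2. Of all tested genes 0.458% rose and 0.411% fell in batch 1, and 13.1% rose and 13.6% fell in batch 2, so the 6.78% of members that rose was above the share of all genes in batch 1 and below it in batch 2. Hist1h2ap passed in both, with 1.05 and 0.56.

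Of the genes that act on histone RNA, few passed between the genotypes. Slbp, the stem-loop binding protein, had 264 and 438 TPM in old KO and 535 and 385 TPM in young KO libraries, against 386 and 426 TPM in old WT and 495 and 404 TPM in young WT libraries. The genotypes overlapped, and the log2 change was 0.03 (adjusted p = 0.87). None of 18 genes of histone transcription and 3′ end processing, which include Npat, Hinfp, Lsm10 and Lsm11, passed by edgeR in KO against WT. Of 7 genes of histone RNA decay, Dis3l2 (a 3′ exonuclease, -0.45) and Tut7 (a uridylyltransferase, -0.68) fell, and neither passed with the length correction or with litter as a block. Among 11 histone chaperones and modifiers, Nasp (0.48) and Nap1l1 (0.48) rose and Ipo4, an importin, fell (-0.51). With the length correction Nasp, Nap1l1 and Asf1a rose and none fell. With litter as a block Nasp, Nap1l1 and Ipo4 did not pass (adjusted p = 0.0659, 0.0503 and 0.0637).

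Replacement histones, whose genes make ordinary polyA-tailed RNA outside the clusters, were read beside them. Of 11 tested, 3 rose in KO against WT and none fell: H3f3a (0.56, adjusted p = 0.0325), H2afz (0.53, adjusted p = 0.0247) and H2afy2 (0.65, adjusted p = 0.0238). H3f3a, which encodes H3.3, had 2804 and 2660 TPM in old KO and 2520 and 2627 TPM in young KO libraries, against 2191 and 2060 TPM in old WT and 1499 and 2240 TPM in young WT libraries. All 4 KO libraries were above all 4 WT libraries, for H2afz as well, at 1789 to 2494 TPM in KO and 1383 to 1728 TPM in WT libraries. With the length correction only H2afy2 passed.

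Of 24 S phase genes, 4 rose in KO against WT and none fell: Pcna (the replication clamp), Tyms, Gins1 and Rfc4, with log2 changes of 0.43, 0.56, 0.59 and 0.44. The median of the 24 was -0.02, beside 0.62 for the much shorter histone members. With the length correction the medians were 0.14 for the S phase genes and 0.20 for the members. With litter as a block only Tyms passed, and with the length correction only Pcna. Of 15 genes of G2 and mitosis, Cdk1, Birc5 and Ube2c rose, by 0.51, 0.47 and 0.76, and none passed with the length correction. These lists were chosen with earlier results of these data known.

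With age, S phase genes fell. In old against young mice 12 of the 24 S phase genes fell and none rose, among them Mcm2 (-0.72), Mcm3 (-0.65), Mcm4, Mcm5, Mcm6 and Mcm7, which form the replicative helicase, and Cdc6, Cdt1 and Uhrf1. Summed S phase TPM was 3150 to 3984 in old and 4318 to 4833 in young libraries, which did not overlap. With the length correction 10 fell and no histone member did, but the medians were then close, at -0.39 for the S phase genes and -0.37 for the members. Of all tested genes 9.61% fell without the correction, and 7.53% fell and 3.29% rose with it. Cell type markers moved with age as well: 5 of 10 LSK genes and 4 of 7 erythroid genes fell and none rose. Summed LSK marker TPM was 1618 to 2652 in old and 2165 to 3548 in young libraries, and summed erythroid TPM 93.5 to 642 in old and 246 to 757 in young libraries. Their part in the S phase and histone values was not tested. Of the transcription and processing genes, E2f1 (-0.65), Hinfp (-0.58), Cstf2 (-0.64) and Srrt (-0.44) fell, and of the decay genes Upf1, Eri1 and Dis3l2 fell. Chaf1a, which deposits new H3 and H4 on copied DNA, fell by 0.74 on the log2 scale. Slbp changed by -0.32 and did not pass (adjusted p = 0.0746).

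**Figure D5:**
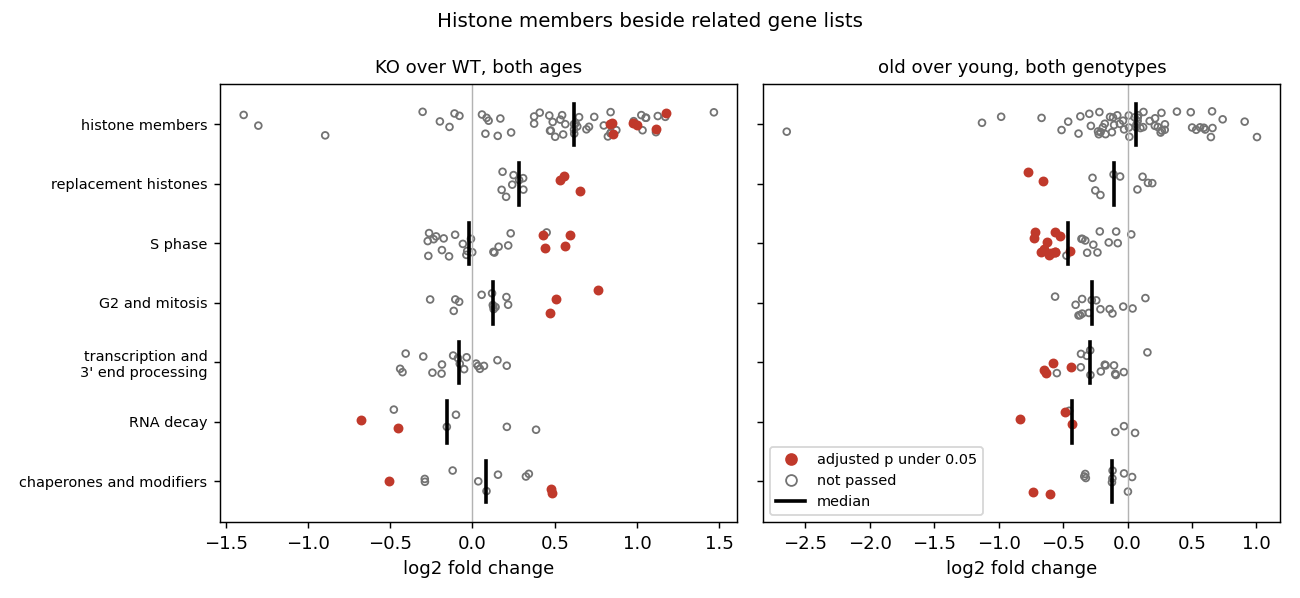
Log2 fold changes of the 59 tested histone members and of 6 related gene lists, for KO over WT (left) and old over young (right); red points passed at an adjusted p under 0.05 and black bars are medians. The members' median is 0.62 for KO over WT and 0.07 for old over young, and the S phase median is -0.02 and -0.46. With the length correction, which is not plotted, the medians are 0.20 and -0.37 for the members and 0.14 and -0.39 for the S phase genes.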

How the data were processed

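RNA of LSK cells from 8 mice was sequenced after SMART-Seq v4 amplification, per the labels' protocols. The deposited tables hold kallisto estimated counts, TPM and effective lengths per transcript, per the file headers. The submitters' processing notes name kallisto, DESeq2 and mm10. Of 115088 transcripts, 114200 matched GENCODE vM21 by identifier, and the 888 others held 0.259% to 0.47% of counts. Gene sums of the estimated counts were rounded to whole numbers, filtered with filterByExpr (minimum count 10, minimum total 15), scaled by TMM and tested with edgeR 4.0.16 in R 4.3.3. Adjustment was by Benjamini and Hochberg over 25543 genes, at 0.05. The effects over both ages or genotypes came from genotype + age + batch (4 residual degrees of freedom), the others from the 4 groups + batch (3). TPM gave the levels.

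Alternatives were DESeq2 1.42.0 (test, size factors), limma 3.58.1 on log2(TPM + 1) or log2(TPM + 0.1), no filter, no batch term, a loess correction of effective length (span 0.5), transcripts with 1 exon, each batch alone, litter as a block and each library left out. With 2 mice a group, a p-value rests on the spread pooled over groups. Counting error was far below that spread: the 2 mice of a group gave a chi-square of 85.9 to 266 per degree of freedom. The labels pair KO and WT by litter, and littermates' deviations from their group means correlated at 0.0923 in old and 0.235 in young mice across genes. Within an age, litter and batch coincide, so these correlations cannot tell the 2 apart. The edgeR fit was checked on simulated counts with a lower dispersion than these data (0.134 and 0.141 in the 2 models). They had no batch, litter or length effect, so the check does not cover those. Named members were the 3 of highest mean TPM in each class and those that passed, besides Asxl2 and Slbp. Members and gene lists were chosen with earlier results of these data known. Tables and plots used Python 3.11.15 with matplotlib 3.10.9.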

Additional observations from a re-analysis of the deposited data

Results flagged for a closer look

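Hist1h4k stood apart in 2 libraries. It had 33.9 TPM in young KO replicate 1, against 0.530 to 2.59 TPM in the other 3 KO libraries, and 67.7 TPM in young WT replicate 1, against 0.764 to 1.02 TPM in the other 3 WT libraries. In each set of 4 the gap to the next library was 0.938 and 0.996 of the range, above the 95% critical value of Dixon's test. The 2 mice are the littermates of litter 4. Of 44 such sets tested, 2 were flagged, and about 1 in 20 is flagged by chance. The transcript has 13.8% of its 31-base words to itself and shares 206 with Hist1h4a. Without it, summed H4 TPM in litter 4 was 88.9 in KO and 95.5 in WT, against 123 in KO and 163 in WT with it.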

How the results depend on the processing

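For KO against WT over both ages the 7 called members became 14 with the DESeq2 test, 4 in batch 1 only, 1 with the length correction and 1 with no batch term; leaving out 1 library gave 0 to 11. The fewest calls came without 1 of the old libraries. The most came without young WT replicate 2, where the most genes of all were called as well. With 1 library left out, the members' median log2 change was 0.48 to 0.86, beside 0.0026 to 0.14 over all tested genes. With no batch term 1.46% of all genes passed. Hist1h1b kept its call in 17 of 19 alternatives, Hist1h2ap in 13, Hist1h2ah and Hist1h2ai in 11, Hist1h2bc in 10 of 18, Hist1h1a in 8 and Hist1h2ae in 7; none changed sign. The litter block gave 6 calls over both ages, where 1.48% of all genes rose. For KO against WT in old mice the 2 calls became 10 with the DESeq2 test (4.41% of all genes rose), 4 with limma at either pseudocount, 9 with no filter, and 0 with the length correction, the litter block or no batch term; leaving out 1 library gave 0 to 9. Of all genes, 2.14% rose with no filter, 1.88% with limma on log2(TPM + 1) and 1.24% with limma on log2(TPM + 0.1). With 1 library left out, the fewest calls came without 1 of the old libraries. The most came without young WT replicate 2, where the most genes of all rose as well. The members' median log2 change was then 0.64 to 1.03, beside -0.14 to 0.09 over all tested genes. In young mice the 0 calls became 1 with the DESeq2 test (1.52% of all genes) and 1 with no filter (0.995%). Beside the age counts that follow, 10.7% of all genes passed over both genotypes in batch 1 only and 7.36% in batch 2 only. With no filter 15.3% passed with age over both genotypes, 6.96% in KO mice and 2.4% in WT mice. With age over both genotypes the 0 became 5 with the DESeq2 test and 1 in batch 1 only, batch 2 only or with no filter, and 0 to 1 with 1 library left out. With age in KO mice 0 became 2 with the DESeq2 test, 1 with no filter and 0 to 1 with 1 library left out; in WT mice 1 with no filter and 0 to 1 with 1 library left out. The interaction kept 0 in every alternative run, the litter block included, but few of all genes passed either. The largest share of all genes was 0.177%, with no filter, so the 0 is not particular to the members. The log2 ratio of summed TPM was 0.69 for KO over WT and 0.10 for old over young. It ranged from 0.49 to 1.00 and from -0.20 to 0.43 over the alternatives run on this sum. These were TMM-scaled counts, transcripts with 1 exon, the sum without its highest member, each batch alone and each library left out. Each moved it by less than the within-group SD of 0.71. That SD is larger than the KO over WT ratio itself and includes the batch difference, so it cannot show that the ratio is stable. The length correction, which lowered the members' median log2 change in KO against WT from 0.62 to 0.20, was not applied to the sum. No age comparison could be fitted with litter as a block, because each litter holds mice of 1 age. When a library is left out, the lone mouse of its group is assumed to vary like the others. The share of all genes that passed also changed with the library left out, so those counts of members are not read as a result. Short effective lengths, shared sequence and 2 mice a group limit these values.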
